A study of Citrus unshiu with 2 samples.

Results

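Expression of 6 genes of organ growth and cell division, chosen from 23159 measured genes, was followed in stems of Citrus unshiu, the satsuma mandarin. They are 4 transcription factor genes, described in the authors' deposited table as ANT (Cs1g21310), axial regulator YABBY 5 (Cs4g18050), LOB domain-containing protein 4 (Cs2g10630, here LBD4) and SHI RELATED SEQUENCE 5 (Cs3g25570, here SRS5), and 2 cyclin genes, cyclin-D3-1 (Cs3g23120) and cyclin-D2-2 (Cs1g21610). They were picked by name with their difference between the 2 libraries already known, so their direction and size are a description with no test.

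Both groups were wild-type trees with confined roots, grown under a rain-proof cover in natural day length. Control trees received normal water, and light drought trees stood in soil that dried to a set moisture of about 15%. Each treatment had 20 trees, and 1 RNA-seq library per group was made from mature stems of shoots at day 75. How many trees stand behind a library was not given in the sources used, and no difference below has a replicate check.

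These genes belong to the machinery that sets how many cells a plant organ makes. In Arabidopsis, ANT keeps cells of young organs dividing, and organs that carry more of it grow larger and hold cyclin D3 expression for longer. YABBY factors mark the lower side of leaves and promote growth of the blade, LOB domain factors act at organ boundaries and in the dividing cells of vascular tissue, and SHI family zinc finger factors raise auxin synthesis. D-type cyclins bind a cyclin-dependent kinase, which then releases the retinoblastoma brake on entry into DNA replication.

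Reads assigned to genes came to 32856618 for the control and 31760704 for light drought. Levels are RPKM, that is reads scaled to exon length and to the library's reads in genes, so they can be compared between genes. A gene was kept when its RPKM reached 1 in either library, and it was called lower or higher in light drought when log2((light drought + 0.5)/(control + 0.5)) was at most -1 or at least 1, a 2-fold difference. Of 15654 kept genes, 2.12% were lower and 0.882% were higher by this rule, and the median log2 ratio was 0.0024. All 6 growth genes were kept, 4 of them only through the control, because ANT, YABBY 5, LBD4 and cyclin-D3-1 were under 1 in light drought. Each of the 6 was lower, with a median log2 ratio of -1.46, which their selection on this difference fixes.

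SRS5 was the most abundant of the 6 and had the lowest log2 ratio. It stood at RPKM 25.7 in the control, from 1781 reads, and at 4.23 in light drought, from 283 reads. The control level was 6.08 times the light drought level. In rank, SRS5 was above 84.8% of all genes in the control and above 53.1% in light drought. Its log2 ratio was -2.47, the 22nd lowest among kept genes, and the 95% counting interval of the RPKM ratio ran from -2.79 to -2.42. The gene lies on chromosome 3 at 27129161 to 27132365, on the minus strand, with 3 merged exons and 2108 exon bases. The sources used here name no genome build for the coordinates.

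ANT stood at 3.91 in the control, from 330 reads, and at 0.577 in light drought, from 47 reads. Light drought held 14.7% of the control level, the smallest remaining share among the 6. The log2 ratio was -2.04, and the counting interval of the RPKM ratio, computed without the added 0.5, was -3.24 to -2.32. For low genes the added 0.5 pulls the log2 ratio towards 0, so it can lie outside this interval. ANT lies on chromosome 1 at 24228758 to 24232565, minus strand, with 7 merged exons.

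YABBY 5 stood at 2.48 in the control (129 reads) and 0.556 in light drought (28 reads). Its log2 ratio was -1.49, with a counting interval of -2.80 to -1.56. The model covers chromosome 4 from 17681017 to 17684824 on the minus strand. Its 26 listed exon rows merged to 7 exons, so it holds alternative transcripts, which these values cannot separate.

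LBD4 stood at 2.79 in the control (96 reads) and 0.900 in light drought (30 reads). Its log2 ratio of -1.23 was the nearest to 0 among the 6, close to cyclin-D2-2 at -1.24. Without the added 0.5, cyclin-D2-2 was nearer to 0, at -1.55 against -1.63 for LBD4. The counting interval of LBD4 was -2.27 to -1.02. With 1 in place of 0.5 added to both levels, the log2 ratio was -0.99, and LBD4 was then not called lower. It has 2 exons on chromosome 2 at 7957206 to 7959448, minus strand, on either side of an intron of 1194 bases.

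The 2 D-type cyclins were both lower. Cyclin-D3-1, of the class that responds to cytokinin in Arabidopsis, stood at 1.88 in the control (139 reads) and at 0.392 in light drought (28 reads), a log2 ratio of -1.42 with a counting interval of -2.90 to -1.67. Cyclin-D2-2 stood at 3.52 (188 reads) and 1.20 (62 reads), a log2 ratio of -1.24 with an interval of -1.99 to -1.13. The level of cyclin-D2-2 was 1.87 times that of cyclin-D3-1 in the control and 3.06 times in light drought, but the counting intervals of their RPKM ratios overlap. Cyclin-D3-1 lies on chromosome 3 at 25492381 to 25494950, minus strand, with 4 exons, and cyclin-D2-2 on chromosome 1 at 24442723 to 24444862, plus strand, with 5.

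**Figure D1:**
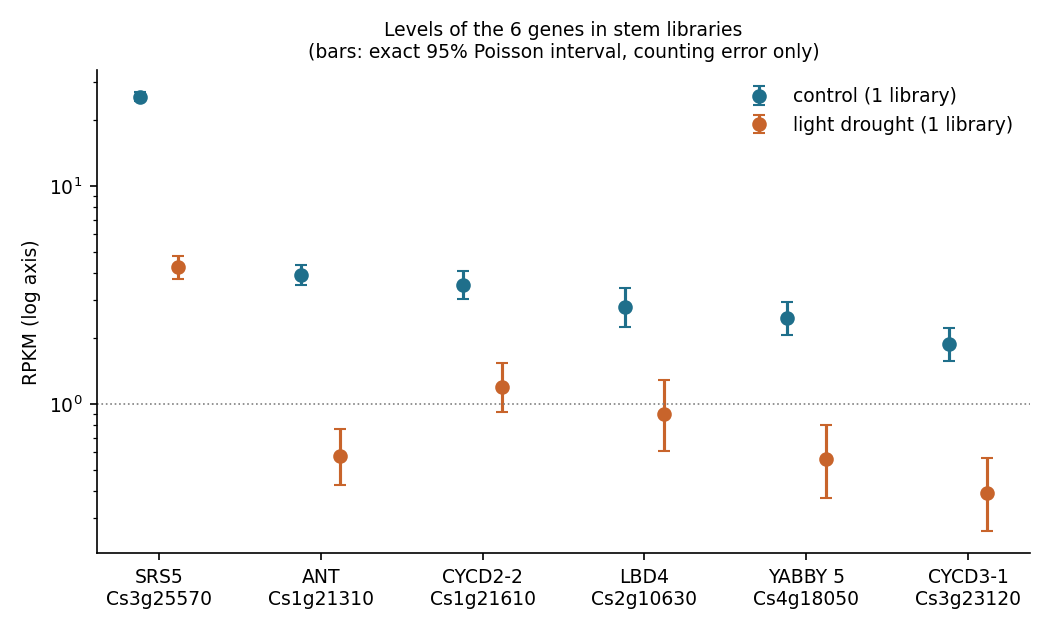
RPKM (log axis) of each gene in the control (blue) and light drought (orange) library, with exact 95% Poisson intervals that cover counting error only. Every light drought point lies below its control point, and the dotted line marks the minimum of 1.

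Ordered by control level, SRS5 at 25.7 came first, followed by ANT, cyclin-D2-2, LBD4, YABBY 5 and cyclin-D3-1. In light drought the order was SRS5, cyclin-D2-2, LBD4, ANT, YABBY 5 and cyclin-D3-1. In both libraries the Poisson interval of SRS5 lay apart from that of the next gene, and all other neighbours in the order had overlapping intervals. ANT and cyclin-D2-2, whose intervals overlapped in the control, were apart in light drought, where ANT reached at most 0.767 and cyclin-D2-2 was at least 0.920. Of 15 pairs among the 6 genes, 4 had counting intervals of the RPKM ratio that did not overlap, namely ANT or SRS5 with LBD4 or cyclin-D2-2.

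**Figure D2:**
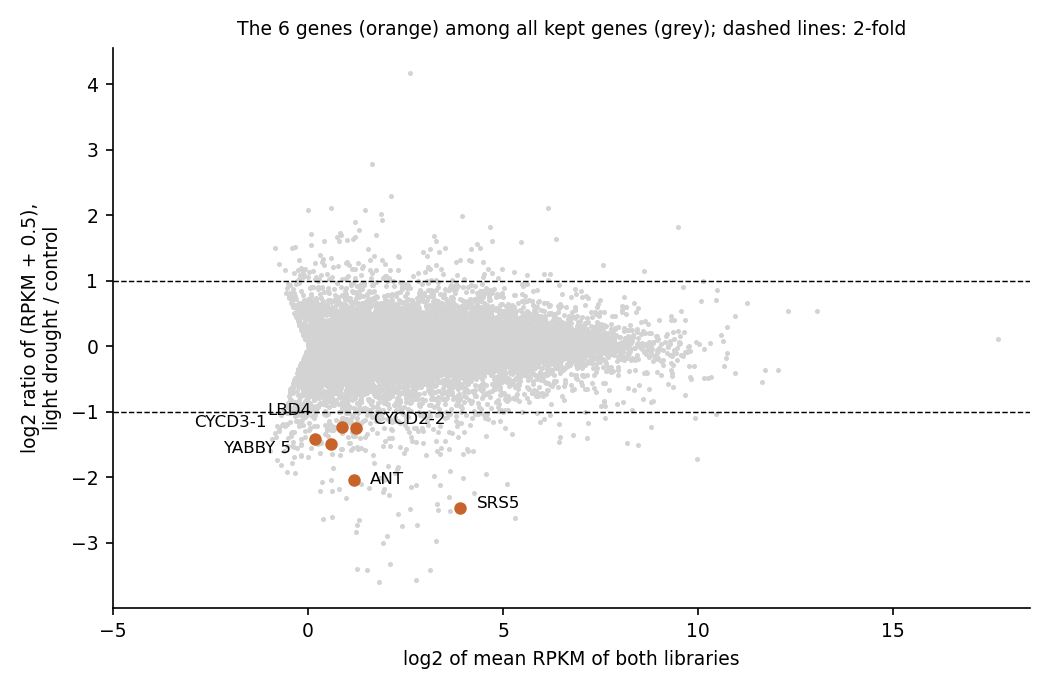
Log2 ratio of RPKM + 0.5 against the log2 of mean RPKM for 15654 kept genes (grey) and the 6 growth genes (orange), with dashed lines at 2-fold. The 6 genes lie between -2.47 and -1.23, below the main cloud of genes, and SRS5 is the one at a clearly higher mean level.

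Relatives of the 6 genes were sought by protein domain among the 2568 genes of the authors' second deposited table, the only one with annotation. The domains were chosen after the values had been seen. That table is made of genes its name calls differential, so its shares are high: of 1649 kept genes with a Pfam domain, 14.8% were lower and 5.70% higher, and of 1231 kept genes with a description, 15.1% were lower and 5.77% higher. Counts of relatives are read against these shares, and families may have further genes outside the table.

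The YABBY domain was carried by 1 other gene in the table, Cs8g14260, which has no name in the files. It stood at 10.5 in the control (549 reads) and 1.99 in light drought (100 reads). That was a higher level than YABBY 5 in both libraries and a log2 ratio of -2.15, with a counting interval of -2.73 to -2.10 that overlaps the one of YABBY 5. Both YABBY genes were therefore lower.

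The SHI family domain was found in SRS5 and in LATERAL ROOT PRIMORDIUM 1 (Cs2g29700), named for its expression in young lateral roots of Arabidopsis. The latter stood at 4.18 (318 reads) and 1.82 (134 reads), a log2 ratio of -1.01 with an interval of -1.50 to -0.90, and it was not called lower with 1 added. SRS5 was 6.16 times as abundant as this relative in the control and 2.32 times in light drought, and the counting intervals of their ratios did not overlap.

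Of 5 LOB domain genes, 4 were kept and 2 were lower, neither of them with 1 added to both levels. Beside LBD4, LOB domain-containing protein 40 (Cs6g18700) stood at 3.72 and 1.38 (log2 ratio -1.17). LOB domain-containing protein 25 (Cs2g27530), at 1.32 and 0.441, had a ratio of -0.95. LOB domain-containing protein 1 (Cs7g27640) went the other way, at 0.663 in the control and 1.12 in light drought, with a counting interval of -0.021 to 1.55 that includes no change.

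Of 3 genes placed by InterPro in the AP2-like group of ANT, all 3 were lower. APETALA 2 (Cs6g04120), a factor of floral organ identity, was 1 of them, and ANT stood at 0.340 of its RPKM in the control and 0.115 in light drought. The third, WRI1 (Cs3g07310), is a regulator of fatty acid synthesis and had the highest level, RPKM 425 in the control. Over all 20 genes with an AP2 domain, 19 were kept, 9 were lower and none was called higher. Log2 ratios above 0 belonged to 3 of them, RAV2 (Cs6g18930, 0.85), ethylene-responsive transcription factor 1B (Cs5g29870, 0.69) and the unnamed Cs1g11880 (0.55), each with a counting interval above 0. The lowest log2 ratio among them, -2.23, belonged to Cs3g19420, a single-exon gene with no name in the files that stood at 6.59 (296 reads) and 1.01 (44 reads).

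**Figure D3:**
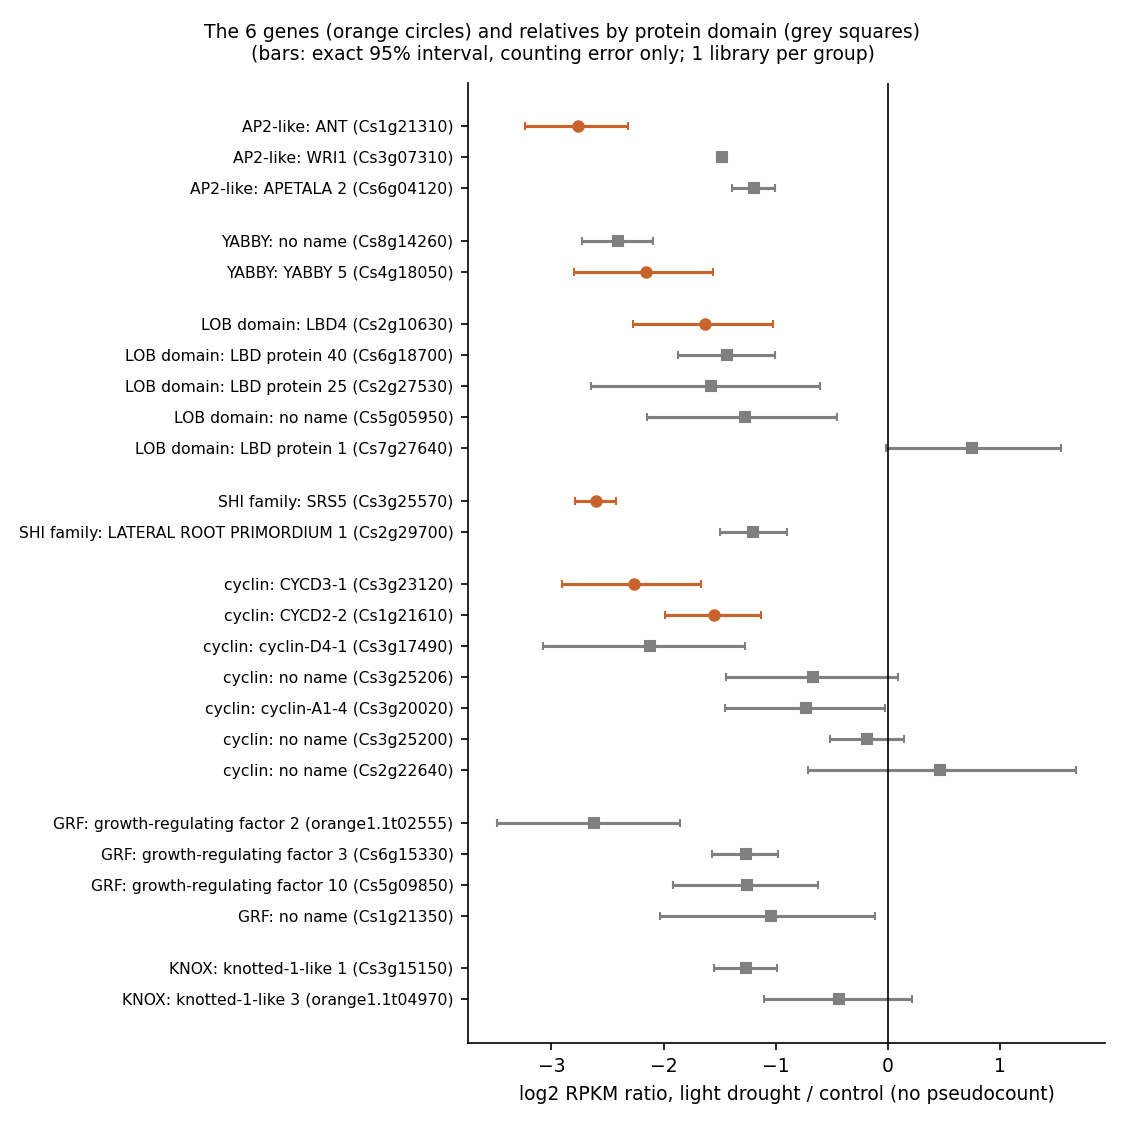
Log2 RPKM ratio of light drought to control, without added constant, for the 6 genes (orange circles) and genes of the AP2-like group, the YABBY, LOB, SHI and cyclin domains, growth-regulating factors and KNOX genes (grey squares), with exact 95% counting intervals; the other AP2 domain genes are not drawn. Of the genes drawn, most lie left of 0, while LOB domain-containing protein 1 and the unnamed cyclin gene Cs2g22640 lie right of it with intervals that reach 0.

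The cyclin domain was carried by 7 genes of the table, of which 4 were kept and only the 2 D-type cyclins above were lower. The most abundant was the unnamed Cs3g25200, at 11.6 and 10.2 (-0.18), with a counting interval of -0.52 to 0.15. The unnamed Cs3g25206, also kept, stood at 2.93 and 1.85 (-0.55), with an interval of -1.44 to 0.087. Another gene described as a D-type cyclin, cyclin-D4-1 (Cs3g17490), was under the minimum, at 0.846 (63 reads) and 0.194 (14 reads), and the counting interval of its RPKM ratio was -3.07 to -1.27. The 3 described D-type cyclins had a summed RPKM of 6.25 in control stems and 1.79 under light drought. An unnamed gene that InterPro places in the plant cyclin D group, Cs2g22640, did not share this, at 0.212 (12 reads) and 0.292 (16 reads), with an interval of -0.71 to 1.68. Cyclin-A1-4 (Cs3g20020), of a class active later in the cycle, stood at 0.825 and 0.498. Cyclin-P3-1 (Cs5g31280), matched by description and not among the 7, stood at 1.23 and 0.749.

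Other cell cycle genes that reached the minimum were called in neither direction on the scale with 0.5 added. Of 10 genes matched by description to mitosis and cytokinesis, 7 were kept and none was called, with a median log2 ratio of -0.66. With 0.1 added, 2 were lower and 1 was higher, so the absence of calls depends on the constant. The most abundant, 65-kDa microtubule-associated protein 1 (Cs4g09670), a bundler of microtubules, stood at 82.2 and 48.5 (log2 ratio -0.76). Kinesin-like protein KIN-5D (Cs8g17660), of the spindle motor class, stood at 2.79 and 1.27 (-0.89). The kinase Aurora-2 (Cs4g18970), which acts in mitosis, was instead at 0.452 in the control and 1.12 in light drought (0.77), from 20 and 48 reads. Under the minimum, a kinesin-like gene (Cs1g20970) stood at 0.298 (35 reads) and 0.0617 (7 reads), with a counting interval of -3.69 to -1.08. KIN-7B (Cs4g06840) stood at 0.421 (42 reads) and 0.124 (12 reads), with an interval of -2.82 to -0.81. The interval of KIN-12D (Cs5g34300), also under the minimum, was -1.13 to 0.00036. Of 4 DNA replication genes only Cs7g15230, with an ORC3 domain, was kept, at 2.02 and 1.26. Under the minimum, ribonucleoside-diphosphate reductase (Cs1g04640) had an interval of -2.12 to -0.42. DNA polymerase epsilon (Cs3g07490) had one of -1.13 to -0.29, and PSF3 (Cs7g31120) one of -1.02 to 0.32. The 1 core histone gene matched, an H2A (Cs8g18050), stood at 4.17 and 3.89.

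Other organ size regulators were lower in part. Of 12 genes matched by description, 11 were kept, 3 were lower and none was higher, with a median log2 ratio of -0.89 against -0.25 for all kept genes with a description. The count of 3 depends on the added constant: it was 6 with 0.1 added and 0 with 1 added. It stayed at 3 under median-ratio scaling and under upper-quartile scaling. Scaling to equal sums of RPKM gave 7. That scaling shifted the median of all kept genes by only -0.044 but raised their number from 15654 to 16563. The count of 7 therefore cannot be put down to scaling between the libraries alone. Growth-regulating factor 2 (orange1.1t02555) stood at 1.28 (102 reads) and 0.207 (16 reads), a log2 ratio of -1.33. Growth-regulating factor 3 (Cs6g15330) stood at 5.75 and 2.39 (-1.11), and the repressor OFP3 (Cs6g09800) at 2.95 and 1.22 (-1.01). Growth-regulating factor 10 (Cs5g09850) was kept but not called lower, at 1.93 and 0.811 (-0.89). Growth-regulating factors drive cell division in leaves together with a coactivator, GRF1-interacting factor 1 (Cs8g13110), which was at 10.4 and 11.4 (0.14, counting interval of the RPKM ratio -0.019 to 0.31). The factors and their coactivator thus had different ratios in the same libraries.

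Cytochrome P450 78A5 (Cs7g11300), known in Arabidopsis as KLUH, a promoter of organ growth, was at 0.832 in the control from 70 reads and had no read in light drought. Set to a floor of 3 reads in the light drought library, its level would be 22.6-fold lower, a log2 ratio of -4.50. The 95% counting interval of the log2 RPKM ratio, which also covers the error of the control reads, ended nearer to 0, at -4.16. It missed the RPKM minimum and is not among the 11 kept genes. Its relative 78A7 (Cs3g22160) stood at 2.18 and 2.50. The other named members of this list, LONGIFOLIA 1 (Cs5g30550, -0.98) and EXORDIUM-like 5 (Cs8g01410, -0.86), were not called lower.

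Among 9 genes matched to shoot meristem and boundary factors, 8 were kept and 1 was lower, with a median of -0.69. That was knotted-1-like 1 (Cs3g15150), a homeobox factor of meristems, at 6.02 and 2.50 (-1.12). Scarecrow-like protein 9 (Cs6g06570) stood at 50.8 and 29.0. BEL1-like homeodomain protein 4 (Cs1g23520), of the family that partners knotted-type factors, was higher in light drought by less than 2-fold, at 28.9 and 39.9 (0.46). The word "branched" also drew in an amino acid aminotransferase (Cs3g16440, 0.81), and without it the median was -0.79. Scarecrow-like protein 9 is 1 of 8 genes with a GRAS domain in the annotated table. Of these, 6 were kept, none was lower and 1 was higher. Log2 ratios were below 0 for 4 of them and above 0 for 2, both described as SHORT-ROOT. The gene called higher, Cs5g23210, stood at 7.79 and 19.8 (1.29), and Cs1g21500 at 13.1 and 19.5 (0.56).

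**Figure D4:**
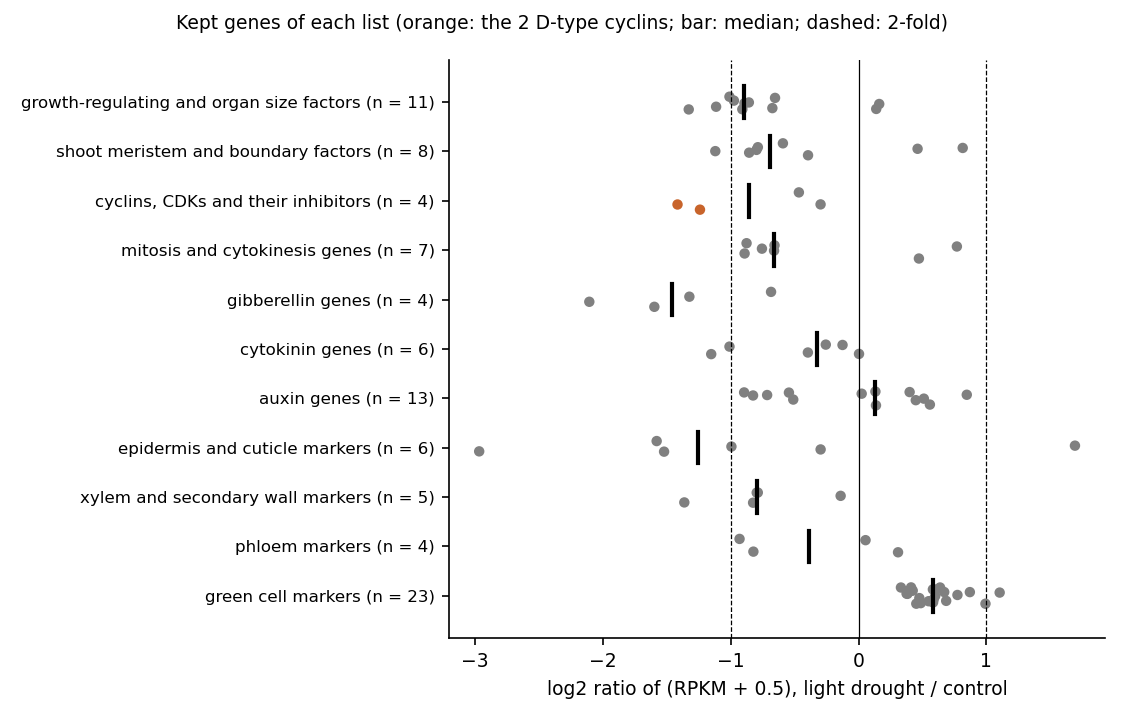
Log2 ratio of RPKM + 0.5 for the kept genes of each list (points), with the median (bar) and 2-fold (dashed lines); the cyclins D3-1 and D2-2 are orange. Growth, meristem and mitosis lists have medians between -0.89 and -0.66, and all green cell markers matched in the annotated table lie above 0.

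Markers of stem cell types also differed between the libraries, and their part in the result was not tested. They were matched only in the authors' table named for differential genes. There 15.1% of kept genes with a description were lower and 5.77% higher. Markers outside it are not counted, so the directions and sums do not cover all genes of a cell type. Fewer cells of a type and less RNA per cell cannot be told apart in whole stems. Of 6 epidermis and cuticle markers, 3 were lower and 1 higher, and their summed RPKM was 219 in the control and 114 in light drought. Lipid-transfer proteins, which are secreted at the surface, stood at both ends: LTP1 (Cs6g09950) had a log2 ratio of -2.97, and LTP4 (orange1.1t01623) one of 1.69. Protodermal factor 1 (Cs7g17000), a gene of the young epidermis, stood at 5.88 and 1.72 (-1.52). The cambium marker WUSCHEL-related homeobox 4 (Cs3g23280), which maintains the dividing cells of the stem, stood at 8.09 and 4.24 (-0.86). Of 7 genes matched as xylem and secondary wall markers 5 were kept, 1 was lower and the sums were 46.1 and 24.8. All but the protease XCP1 (Cs8g01170, 14.3 and 8.02) were drawn in by the name fasciclin-like, and their expression in xylem was not tested. The lower gene was a fasciclin-like protein 17 (Cs7g23810, -1.36). Fasciclin-like protein 11 (Cs6g04310) stood at 1.21 and 1.05, with a counting interval of -0.83 to 0.42. Among 4 genes matched as phloem markers none was called, with a median of -0.38 and sums of 11.3 and 7.37, though with 0.1 added 2 were lower. An F-box gene, PP2-B12 (Cs9g10740, 0.05), was a chance text match among the 4. Without it the median was -0.82 and the sums were 9.53 and 5.47. Of the 3 genes left, 2 were below 0 and 1 was above. Callose synthase 7 (Cs7g17335) made up most of the sums, at 7.37 and 3.63. The SIEVE ELEMENT OCCLUSION B genes went opposite ways: Cs3g07110 at -0.82, and Cs5g11280 at 0.31 with a counting interval of 0.028 to 0.84. The 23 green cell markers had ratios above 0, with 1 higher, and sums of 510 and 746. Without HCF136 (Cs7g13970), a photosystem II assembly factor left out as a chance text match, 22 remained. All 22 had ratios above 0, with sums of 499 and 731. The root marker, ROOT HAIR SPECIFIC 17 (Cs8g01690), was at 2.15 and 1.43, and no marker in these lists was at 0 in either library.

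Of the 12 gene models next to the 6 genes, 1 on each side, 8 were kept and 2 were lower, where 2.12% of all kept genes were. Both lie on the side of lower coordinates of a D-type cyclin: an L-asparaginase-type gene (Cs3g23110), 11789 bases from cyclin-D3-1, stood at 98.5 and 47.6 (-1.04), and Cs1g21600, an unnamed gene 12335 bases from cyclin-D2-2, stood at 33.9 and 15.4 (-1.11). Over the 5 models on each side of every gene, 41 of 60 were kept, 3 were lower and none was higher, with a median of -0.098, against the same 2.12%. With so few models these counts were not tested. ANT and cyclin-D2-2 lie 210157 bases apart on chromosome 1, and of 21 kept models between them 1 was lower, the same Cs1g21600. An unnamed gene with the domains of a growth-regulating factor (Cs1g21350) is the third model beyond ANT, under the minimum at 0.402 and 0.195. No exon of the 6 genes overlapped an exon of another model.

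**Figure D5:**
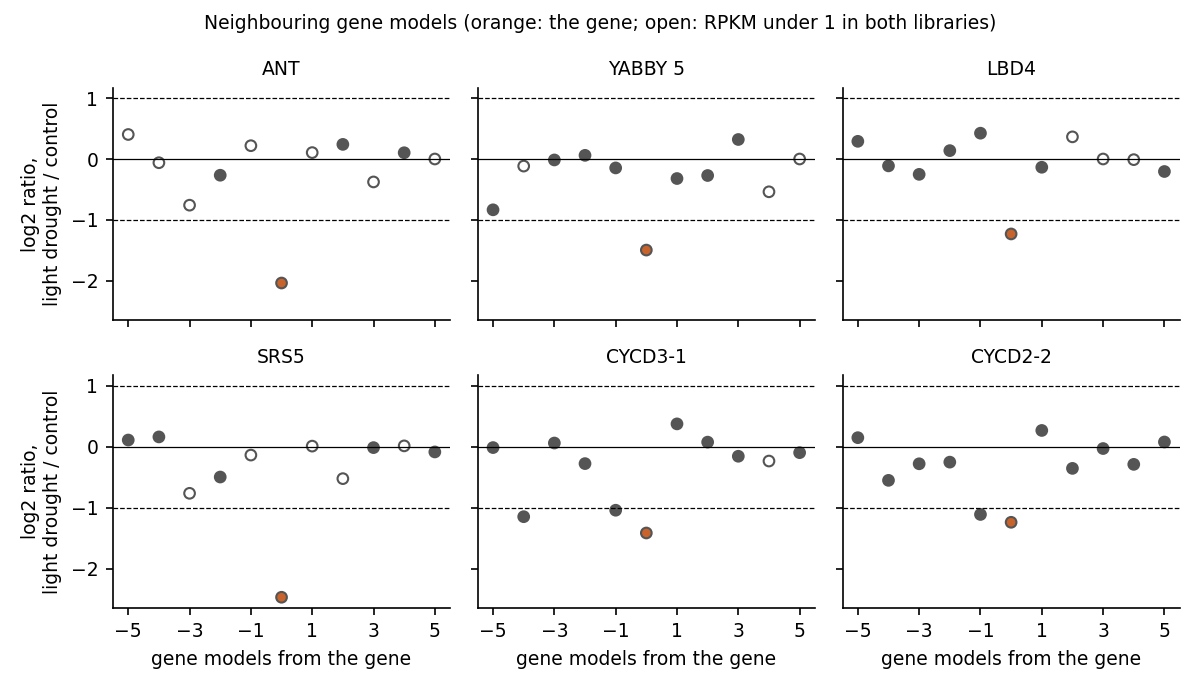
Log2 ratio of RPKM + 0.5 of the 5 gene models on each side of each growth gene, in their order on the chromosome (orange, the gene itself; open, RPKM under 1 in both libraries; dashed, 2-fold). Most neighbours lie between the dashed lines, and the 3 kept neighbours below -1 lie near the 2 cyclins.

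With 2 libraries a gene's pattern is a single ratio, so likeness means only a close log2 ratio at a mean RPKM within 2-fold. By that measure the described gene nearest to SRS5 was organ-specific protein S2 (Cs8g06620, log2 ratio -2.51), among 287 candidates. The nearest to ANT was the acyltransferase DCR (Cs9g17800, -2.04), an enzyme of cutin synthesis in Arabidopsis, and to YABBY 5 the stem-specific protein TSJT1 (Cs2g06180, -1.49). An ankyrin gene (Cs5g27050, -1.23) was nearest to LBD4. For cyclin-D3-1 it was an S-norcoclaurine synthase (Cs5g25270, -1.39) and for cyclin-D2-2 an acyl-activating enzyme (Cs3g20340, -1.24).

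The authors' deposited table gives statistics for 820 genes, 582 of them lower, and all 6 growth genes are among the lower ones. By p-value in the authors' deposited table, SRS5 is in place 11 and ANT in place 29, with log2 fold changes of -2.60 and -2.76. The authors' deposited table places cyclin-D3-1 at 120 (-2.26), YABBY 5 at 148 (-2.15), cyclin-D2-2 at 233 (-1.55) and LBD4 at 404 (-1.63). The unnamed YABBY gene Cs8g14260 is in place 31 of the authors' deposited table, ahead of YABBY 5. The sources used here do not say how these statistics were obtained from 1 library per group.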

How the data were processed

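RPKM values for both libraries were deposited by the authors for 23159 genes. The submitters' processing notes list Trimmomatic 0.36, a read trimmer. Not given in the sources used here: the aligner, counting tool, build, use of strand and handling of duplicate reads. Libraries were made with a stranded kit from 2 µg of RNA, per the labels. RPKM times exon length gave whole reads within 0.01 for 100% of nonzero values. For 820 of the 2568 genes in a second table, of which 1540 had an informative description, the authors deposited a log2 fold change and a p-value.

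Log2 ratios used a pseudocount of 0.5 and a minimum RPKM of 1. Exact 95% intervals came from the recovered reads: Clopper-Pearson for a ratio, Poisson for a level. These intervals and the floor of 3 reads cover counting error only. No p-value was computed, since neither group has a second library. Code was tested on simulated data.

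The 6 genes and 21 gene lists (matched by description) were chosen with earlier results of these data known; descriptions came from the first informative RefSeq, NR or UniProt entry. The naming rule took all 6 genes, up to 4 others per list by absolute log2 ratio and the most abundant, the nearest gene models and the closest ratio. The text names part of these. Others, among them Cs8g14260, Cs3g19420, cyclin-D4-1, Cs2g22640, WRI1, Cs1g21350, 78A5, 78A7, the coactivator, cyclin-A1-4, BEL1-like 4 and the AP2 domain genes above 0, were chosen after their values were seen. So were the SHORT-ROOT genes, Cs3g25200, Cs3g25206, growth-regulating factor 10, fasciclin-like protein 11, HCF136 and the mitosis and replication genes under the minimum. Alternatives were other pseudocounts, minimums, thresholds and scalings. Tools were Python 3.11.15, pandas 2.3.3, numpy 2.4.6, matplotlib 3.10.9 and scipy 1.17.1.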

Additional observations from a re-analysis of the deposited data

How the results depend on the processing

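No paired analysis was possible because a group is a single library, and for the same reason no library could be left out. All 6 growth genes stayed below 0 under the 5 other pseudocounts and scalings run, and 29 of 30 such ratios moved by less than the half-width of their counting interval. The exception was ANT, at -2.57 with a pseudocount of 0.1, which weighs less on low genes. Of the 6 genes called lower, 5 were with a pseudocount of 1 (not LBD4), 2 at a 4-fold threshold (SRS5 and ANT), and 1 with a minimum RPKM of 5, which only SRS5 passes. Over all kept genes, 332 were lower and 138 higher. A pseudocount of 1 gave 204 and 88, and one of 0.1 gave 208 higher. A threshold of 1.5-fold gave 965 and 631, one of 4-fold 44 and 8, and a minimum of 5 gave 159 and 68. Equal sums of RPKM gave 513 lower, with 16563 genes kept. That scaling shifted the median of kept genes by -0.044, and the other scalings by less. For lists with at least 2 kept genes, none of 109 medians under other settings moved by more than the SD of its genes. That SD is wide, so this is a weak check: the SHI-type median went from -1.74 to -2.47 with a minimum RPKM of 5. Counts of called genes per list were less stable: 26 of 294 moved by over 1.5 times under other constants, minimums or scalings, among them the organ size list (3 lower, and 0 to 7) and the wall loosening list (10, and 6 with a pseudocount of 1). The 294 include counts of higher genes that were 0 under every setting, as for the SHI-type list. Leaving out chance text matches was chosen after seeing the data. Depth limits low genes most, such as YABBY 5 and cyclin-D3-1 with 28 light drought reads each.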

Other observations

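Hormone genes that act upstream or downstream of these growth genes in other plants differed between lists, read against 15.1% lower and 5.77% higher among kept genes with a description. Of 13 kept auxin genes none was called and the median log2 ratio was 0.13, though with 0.1 added or equal sums of RPKM 1 was lower. They ran from an auxin efflux carrier component 1c (orange1.1t00089), which exports auxin, at -0.90, to an auxin-induced protein PCNT115 (Cs8g10160) at 0.85. Of 6 kept genes matched to cytokinin 2 were lower (0 with 1 added), with a median of -0.33. One of the lower genes, APRR3 (Cs7g27910), is a clock gene matched by its description. The other, histidine-containing phosphotransfer protein 1 (Cs5g34860), a relay of cytokinin signals, stood at RPKM 1.14 in the control from 60 reads and 0.315 in light drought from 16 reads. ARR5 (Cs5g04810), a cytokinin response gene in Arabidopsis, stood at 14.1 and 10.6.

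Of 4 kept gibberellin-related genes 3 were lower: snakin-2 (Cs5g04980, log2 ratio -2.11), snakin-1 (Cs8g04550, -1.60) and gibberellin-regulated protein 14 (Cs6g20220, -1.32). The only kept brassinosteroid gene, BRI1 kinase inhibitor 1 (Cs3g23670), was at 1.03 and 0.567. Of 27 kept genes matched to wall loosening, which cell enlargement needs, 10 were lower and none higher, with a median of -0.77. The match also drew in inhibitors of wall enzymes, namely pectinesterase inhibitors 6 (Cs5g33170) and 10 (Cs5g09360) and a polygalacturonase inhibitor (Cs7g18970). Without them 24 genes were kept, 9 were lower and none higher, with a median of -0.81. The lowest ratios were those of a pectate lyase (Cs5g06600), at 12.4 and 1.45 (-2.72), and an expansin-A1 gene (Cs7g03630), at 1.55 and 0.0377 from 85 and 2 reads (-1.93). Another expansin-A1 gene (Cs5g10820) was the most abundant of that list, at 520 and 330 (-0.66).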
